A study of Mus musculus with 2 samples.

Results

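S1pr1, S1pr4, S1pr5, Klf2, Ccr7 and Gpr183 are 6 of the 32285 mouse genes listed for 2 single-cell RNA sequencing libraries of splenic natural killer (NK) cells. They were taken by symbol: the sphingosine 1-phosphate (S1P) receptors named on lymphocytes, the transcription factor Klf2, and 2 other receptors that place lymphocytes within or between lymphoid organs. The control library came from normally fed mice and the other from mice under dietary restriction (DR), and NK cells of the spleen were sorted by flow cytometry for both. The strain, the age, the feeding schedule, the number of mice, any pooling and the gate of the sort were not given in the sources used here. Each group is 1 library, so cells are not replicates, no difference has a replicate check and no test of DR against control was possible.

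As background, S1P is abundant in blood and lymph and kept low inside lymphoid tissue, and lymphocytes leave tissue along that gradient by way of Gi-coupled S1P receptors. T and B cells mainly use S1PR1, whereas NK cells also depend on S1PR5, whose gene is activated during NK cell maturation under T-bet and Zeb2. KLF2 switches on S1pr1 in T cells. CD69, induced by activation, removes S1PR1 from the cell surface. CCR7 brings cells to lymph nodes and T zones along CCL19 and CCL21, and GPR183 (EBI2) follows oxysterols to the edges of B cell follicles and T zones.

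The control library held 5702 barcodes and 44526828 unique molecular identifiers (UMIs, each counting 1 captured RNA molecule), and the DR library 6287 barcodes and 42134212 UMIs, with medians of 7152 and 5782 UMIs per barcode and 13 barcodes in common. After filters, 5244 control and 5756 DR cells were grouped into 14 clusters without using the 6 genes. NK-like clusters held 4617 control cells (88.0%) and 4414 DR cells (76.7%) and carried the NK markers Ncr1 (1238 and 1076 CPM, UMIs per 1000000 UMIs) and Klrb1c (1132 and 1185 CPM). ILC1-like cells, the tissue-resident relatives of NK cells, numbered 280 and 395. B-like cells numbered 125 and 456, and T-like cells 3 and 290, so T-like levels are given for DR alone. Clusters 7 (cycling cells), 9 (low depth) and 11 (myeloid genes) stayed unnamed and enter no class. NK-like cells were staged by detected UMIs of Cd27 and Itgam (CD11b), which mark early and late NK maturation: 633 control and 905 DR cells had Cd27 alone, 1055 and 959 had both, 2239 and 1550 had Itgam alone, and 690 and 1000 had neither. Depth differed between the stages, with median UMIs of 8938, 8536, 6689 and 5864.5 in control and 7044, 6615, 5024 and 4662 in DR, in that order. A staging on cells thinned to one depth is given with the stage differences. Thinning also moved cells between stages, with 1783 control cells then having neither gene, so that staging does not measure the part of depth alone.

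Levels are CPM of all UMIs of the cells named, with exact 95% Poisson intervals in square brackets. Ratios are on the log2 scale with exact 95% conditional binomial intervals. All intervals cover counting error only, not the variation between mice or libraries. A gene is called higher or lower by size alone, when it is at least 25% higher or 20% lower and its interval leaves out equality. The 3' counts are not scaled by gene length, so levels are compared between cells and not between genes.

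The positions below are those of the mouse build GRCm38 (mm10), the build named in the submitters' processing notes. S1pr1 lies at chr3:115710433-115715072 on the minus strand with 2 exons, and S1pr4 at chr10:81497747-81500132 on the minus strand with 1 exon. S1pr5 lies at chr9:21242912-21248443 on the minus strand with 3 exons and overlaps the opposite-strand gene Gm48303. Klf2 lies at chr8:72319033-72321656 on the plus strand with 3 exons, and Ccr7 at chr11:99144196-99155077 on the minus strand with 3 exons. Gpr183 lies at chr14:121952551-121965195 on the minus strand with 3 exons and overlaps the opposite-strand gene Ubac2.

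Klf2, S1pr4 and S1pr5 were all higher in Itgam-only than in Cd27-only NK-like cells, as described next, and their promoters are therefore shown side by side. The RefSeq promoter table (GRCm38.p6) held 4 of the 6 genes (Klf2, S1pr4, S1pr5 and Gpr183). The lines give 200 bases upstream, from 250 to 51 bases before the RefSeq start, 5′ to 3′ on the gene's strand. Capitals mark TAAATTTA, a core of MEF2 sites, in Klf2, and CACCC or its reverse complement GGGTG, a core bound by KLF proteins, in the S1P receptors.
Klf2 promoter, chr8:72318812-72319011 (+): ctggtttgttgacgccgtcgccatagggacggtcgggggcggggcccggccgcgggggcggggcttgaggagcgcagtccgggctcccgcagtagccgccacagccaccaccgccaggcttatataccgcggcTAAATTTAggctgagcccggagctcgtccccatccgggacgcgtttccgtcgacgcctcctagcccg
S1pr5 promoter, chr9:21248494-21248693 (-): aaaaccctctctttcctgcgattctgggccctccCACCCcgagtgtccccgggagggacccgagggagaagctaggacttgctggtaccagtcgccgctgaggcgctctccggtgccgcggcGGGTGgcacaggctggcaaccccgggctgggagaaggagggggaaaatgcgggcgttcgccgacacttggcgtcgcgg
S1pr4 promoter, chr10:81500188-81500387 (-): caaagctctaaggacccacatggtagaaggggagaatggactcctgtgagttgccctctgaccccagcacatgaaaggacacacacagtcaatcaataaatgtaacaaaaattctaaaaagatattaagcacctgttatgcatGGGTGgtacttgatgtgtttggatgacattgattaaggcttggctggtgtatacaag
The MEF2 core began 117 bases before the Klf2 start, and 0.405% of 32851 promoter windows of this length held one on either strand. Signals through the kinases MEK5 (Map2k5) and ERK5 (Mapk7) are known to induce Klf2 by way of MEF2 factors. The KLF core occurred at 2 places in the S1pr5 window, at 1 in the S1pr4 window and at none in the Klf2 and Gpr183 windows, against 44.4% of all windows with at least 1. The FOXO core GTAAACA (2.58% of windows) and the T-box core TCACACC (2.71%) were searched on both strands and were in none of the 4 windows. No marked match overlaps another, and the MEF2 core was picked after the sequence had been seen. A match describes letters only.

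S1pr5, the receptor NK cells use to leave tissue, was highest in NK-like cells with Itgam alone and lower in every DR stage than in the control stage. In control, the level was 110 CPM [102, 119] in Cd27-only cells, 200 CPM [191, 209] in cells with both genes, 302 CPM [294, 311] in Itgam-only cells and 223 CPM [209, 238] in cells with neither. In DR, the same stages stood at 83.9 CPM [77.1, 91.2], 143 CPM [134, 152], 207 CPM [197, 217] and 183 CPM [171, 195]. The order of the 4 stages was the same in both libraries, and no interval of a DR stage overlapped that of its control stage. The DR Itgam-only interval overlapped that of control cells with both genes.

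S1pr4, the receptor of haematopoietic cells, was also lowest in Cd27-only and highest in Itgam-only cells, with a narrower range. Control levels were 97.2 CPM [89.4, 106] in Cd27-only cells, 140 CPM [133, 148] with both genes, 174 CPM [167, 180] in Itgam-only cells and 133 CPM [122, 145] with neither. DR levels were 103 CPM [95.9, 111], 128 CPM [119, 136], 162 CPM [153, 171] and 150 CPM [139, 161]. In each of the 4 stages the intervals of the libraries overlapped, and the DR value was above control in 2 stages and below it in the other 2.

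Klf2, the factor that induces S1pr1 in T cells, ran over the stages in the same order as S1pr5 in both libraries. Control cells held 901.9 CPM in the Cd27-only stage, 1464 CPM with both genes, 1866 CPM in the Itgam-only stage and 1536 CPM with neither. The DR levels were 902.2, 1271, 1659 and 1473 CPM. Cd27-only cells of the libraries were thus level with each other (log2 ratio 0.00 [-0.05, 0.05]), and the DR values were the lower ones in the other 3 stages, by less than the size rule asks.

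S1pr1 did not follow Klf2 over the stages. In control it stood at 17.9 CPM [14.7, 21.7] in Cd27-only cells, 32.8 CPM [29.3, 36.6] with both genes, 18.0 CPM [15.99, 20.2] in Itgam-only cells and 15.2 CPM [11.7, 19.5] with neither. In DR it stood at 41.4 CPM [36.6, 46.5], 61.9 CPM [56.2, 68.1], 41.5 CPM [37.2, 46.1] and 49.1 CPM [43.1, 55.6]. Every DR stage was above every control stage, and cells with both genes were the highest in each library. Among Itgam-only cells, those with a UMI of Klrg1 or Cx3cr1, genes of terminally mature NK cells, held less S1pr1 (16.7 CPM in control, 32.4 CPM in DR) than those with neither (23.1 and 49.5 CPM). Their log2 ratios were -0.47 [-0.86, -0.07] in control and -0.61 [-0.94, -0.29] in DR.

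Ccr7 and Gpr183 were close to the detection limit in NK-like cells. Ccr7 had 8 UMIs in control (0.225 CPM) and 40 in DR (1.48 CPM). Of these, 4 control and 27 DR UMIs lay in Cd27-only cells, and the control Itgam-only cells had 0 UMIs, with an interval that reaches 0.234 CPM. Gpr183 had 52 UMIs in control (1.46 CPM) and 88 in DR (3.26 CPM), with its control level concentrated in Cd27-only cells (5.41 CPM [3.70, 7.64]) against 0.571 CPM [0.261, 1.08] in Itgam-only cells.

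**Figure D1:**
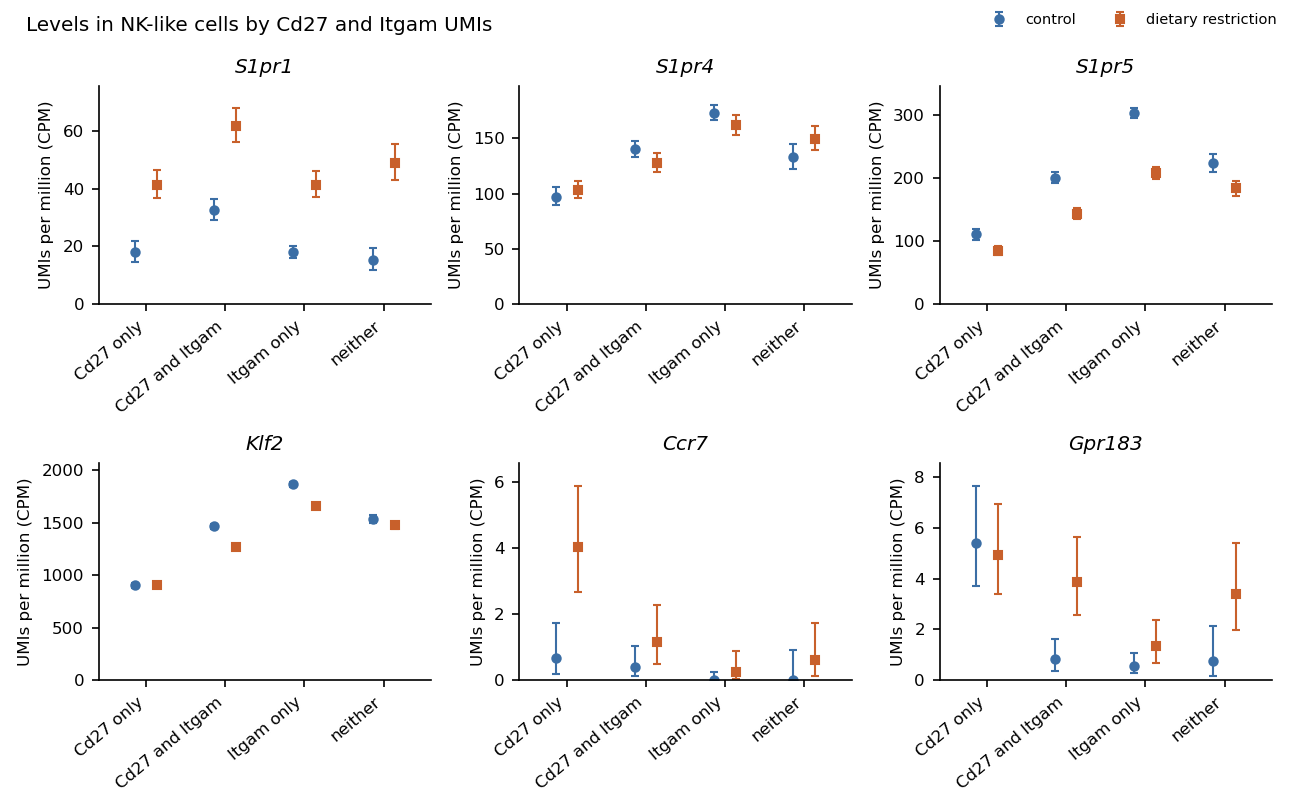
Level of each gene (CPM, vertical axis from 0) in NK-like cells by detected UMIs of Cd27 and Itgam, for the control library (circles) and the DR library (squares), with 95% Poisson intervals. S1pr5 runs from 110 to 302 CPM over the control stages, all above the DR values of 83.9 to 207 CPM stage by stage, whereas S1pr1 is above control in all 4 DR stages.

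Set within each library, Itgam-only over Cd27-only cells gave a log2 ratio for S1pr5 of 1.46 [1.34, 1.58] in control and 1.30 [1.17, 1.44] in DR. The ratio for Klf2 was 1.05 [1.01, 1.09] and 0.88 [0.84, 0.92], and that for S1pr4 was 0.84 [0.71, 0.97] and 0.65 [0.51, 0.78]. S1pr1 did not differ between these stages beyond counting error, at 0.01 [-0.32, 0.34] in control and 0.00 [-0.23, 0.24] in DR, a result that changed with the cells included, as given at the end of the paragraph. The median over all genes was itself 0.108 in control and 0.113 in DR, and the ratios are read relative to that shift. Of the 6 genes, 3 in control and 4 in DR reached a mean of 20 CPM in this comparison, and 3 of them were higher in Itgam-only cells in each library, against 20.9% of 5849 genes higher and 10.4% lower in control and 17.6% of 5822 genes higher and 6.89% lower in DR. Gpr183 went the other way, at -3.24 [-4.50, -2.14] in control and -1.89 [-3.02, -0.87] in DR, from 32 and 33 UMIs in Cd27-only cells and 9 and 11 in Itgam-only cells. NK cells were also picked cell by cell instead of by cluster, by a UMI of Ncr1 or Klrb1c. Cells with any UMI of Cd3e, Cd79a, Ms4a1, Lyz2, Il7r, Tmem176a or Cxcr6 were left out of this pick. The Gpr183 value was then -0.28 in control and -0.92 in DR, both with intervals that span 0. Il7r itself was at 83.7 CPM in Cd27-only and 7.93 CPM in Itgam-only control cells, and its part in this change was not tested. The stage ratios moved when cluster 8, described next, was left out: S1pr1 was lower in Itgam-only cells, at -0.46 [-0.79, -0.12] in control and -0.42 [-0.65, -0.18] in DR, and Klf2 stood at 0.66 and 0.50. Staging on cells thinned to one depth put S1pr1 at -0.65 [-1.16, -0.12] in control and at -0.01 in DR, S1pr5 at 0.95 and 0.97 and Klf2 at 0.61 and 0.50.

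Cluster 8, led by Batf3, Gpr55, Kit and Cd3d, was the NK-like cluster with the lowest levels of S1pr1, S1pr4, S1pr5 and Klf2 among the 6 NK-like clusters with at least 50 cells in each library. It held 197 control and 236 DR cells, of which 152 and 182 were Cd27-only. S1pr1 was at 1.68 CPM [0.459, 4.31] in control (4 UMIs) and 2.98 CPM [1.20, 6.14] in DR (7 UMIs). S1pr5 was at 38.7 and 23.0 CPM, and Klf2 at 313 and 168 CPM. The Klf2 level was lower in DR, with a log2 ratio of -0.90 [-1.08, -0.72], and this was the only one of the 6 clusters in which Klf2 passed the size rule. Clusters 6 and 12, with 42 and 25 DR cells, are left out of these counts. Klf2 also passed the size rule in cluster 6, at -0.35 [-0.56, -0.15]. In cluster 8, Gpr183 stood at 7.15 and 7.23 CPM, and Ccr7 at 0.421 CPM (1 UMI) and 6.38 CPM (15 UMIs).

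Cluster 0, led by Ccr2, Thy1 and Cd27, had the highest S1pr1 of the NK-like clusters, at 41.7 CPM [37.7, 46.1] across 974 control cells and 68.5 CPM [63.8, 73.5] across 1560 DR cells, and S1pr5 at 138 and 112 CPM. Cluster 1, led by Cx3cr1 and Klrg1, had the highest S1pr5, at 329 CPM [319, 338] across 2057 control cells and 259 CPM [241, 278] across 558 DR cells, and S1pr1 at 16.6 and 35.5 CPM. Cluster 5, led by Gm10522, Ly6c2 and Mcam, held 353 control and 1663 DR cells, with S1pr5 at 285 and 220 CPM and S1pr1 at 28.3 and 44.2 CPM. Cluster 2, led by the activation genes Ccl4 and Nr4a1, had S1pr1 at 11.7 and 32.3 CPM. Cluster 4, led by Spp1 and Tnfrsf9, had S1pr1 at 7.44 CPM [3.57, 13.7] and 9.55 CPM [3.504, 20.8], whose intervals overlap.

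**Figure D2:**
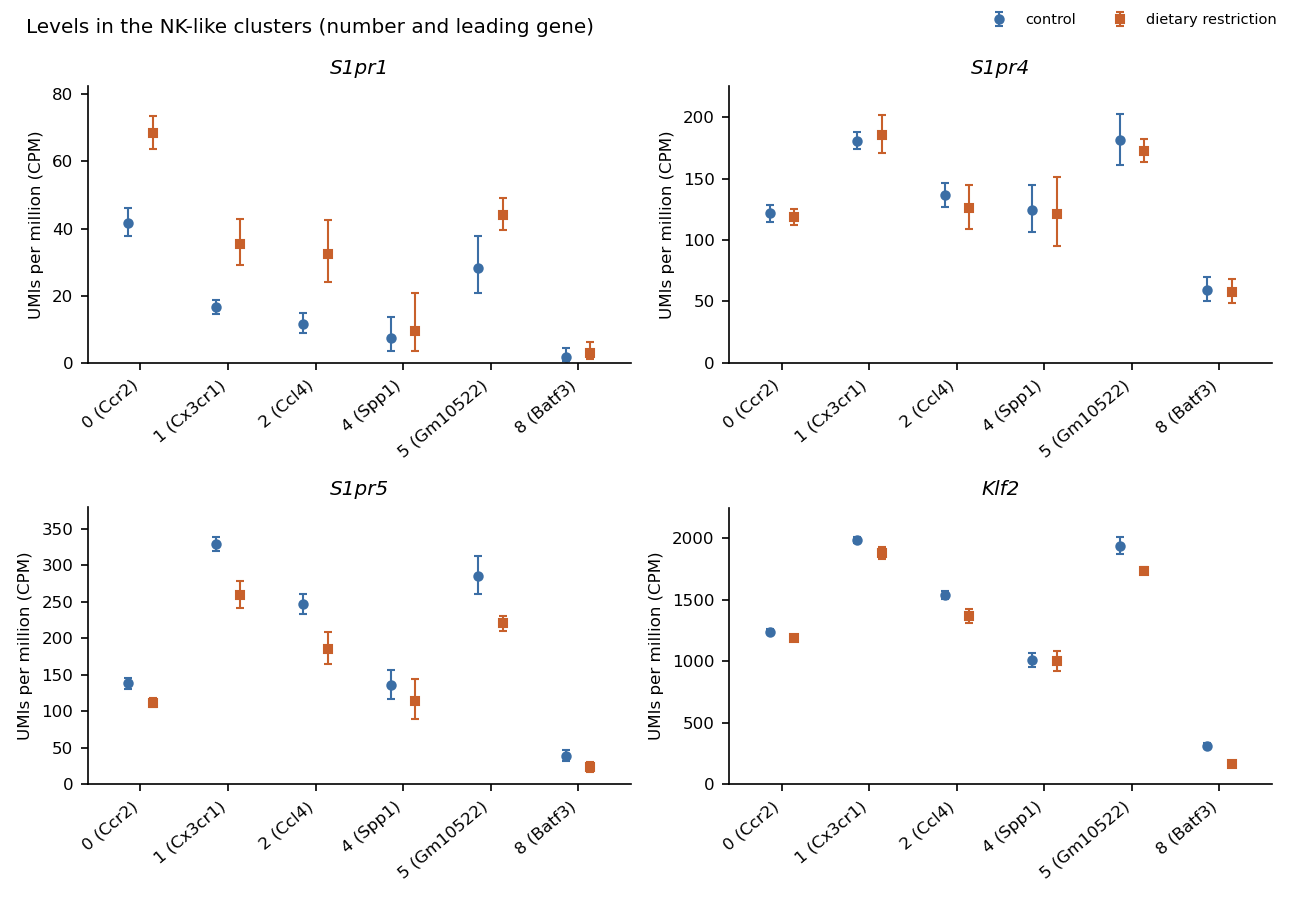
Levels of the 3 S1P receptor genes and Klf2 (CPM, vertical axis from 0) in the 6 NK-like clusters with at least 50 cells per library, named by number and leading gene, with 95% Poisson intervals. S1pr1 peaks in cluster 0 (41.7 and 68.5 CPM), S1pr5 in cluster 1 (329 and 259 CPM), and all 4 genes are lowest in cluster 8.

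Over all NK-like cells, S1pr1 was 21.8 CPM [20.3, 23.3] in the control and 48.2 CPM [45.6, 50.9] in DR, from 774 and 1299 UMIs. The log2 ratio of DR over control was 1.15 [1.02, 1.28], and the stages gave 1.21 in Cd27-only cells, 0.92 with both genes, 1.20 in Itgam-only cells and 1.69 with neither, each past the size rule. Clusters 0, 1, 2 and 5 also passed it, with 0.71, 1.10, 1.47 and 0.64, and clusters 4 and 8, with at most 10 UMIs in a library, gave 0.36 and 0.82 with intervals that span 0. With the 6 clusters weighted equally the ratio was 0.85. S1pr5 was 233 CPM [228, 238] in the control and 155 CPM [151, 160] in DR, a log2 ratio of -0.59 [-0.64, -0.53]. The ratio was below 0 in all 4 stages and all 6 clusters, from -0.24 in cluster 4 to -0.75 in cluster 8, and it passed the size rule in 3 stages and 4 clusters. With stages or clusters weighted equally it was -0.43 and -0.40.

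S1pr4 differed little between the libraries, at 147 CPM [143, 151] in the control and 136 CPM [132, 141] in DR, a log2 ratio of -0.11 [-0.17, -0.05] that was near the median of all genes, -0.063. Klf2 was 1557 CPM in the control and 1336 CPM in DR, a log2 ratio of -0.22 [-0.24, -0.20] that stayed under the size rule. Of the 4 members at 20 CPM or more on average, 1 was higher and 1 lower, against 2.97% of 5828 genes higher (173 genes) and 7.89% lower (460 genes), and the median over the 4 was -0.17. Under median-of-ratios scaling, which sets the median of all genes to 0, the split of these calls was 302 higher and 246 lower, and the ratios were 1.21 for S1pr1 and -0.52 for S1pr5. The same shares were 4.23% and 9.12% in Cd27-only cells, 4.42% and 9.64% with both genes, 4.22% and 8.71% in Itgam-only cells and 4.44% and 9.16% with neither. In every stage S1pr1 was the only one of the 4 genes called higher. S1pr5 was called lower in each stage except the cells with neither gene, where its ratio was -0.29 [-0.42, -0.15].

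The low counts of Ccr7 and Gpr183 were also above control in DR NK-like cells, with log2 ratios of 2.72 [1.61, 4.03] and 1.16 [0.65, 1.68], from levels below the 20 CPM minimum. These ratios did not hold in every set of NK-like cells. Gpr183 was at -0.13 [-0.88, 0.61] in Cd27-only cells, the stage where its level was highest, and passed the size rule in 2 of 4 stages, at 2.25 with both genes and 2.20 with neither. Among the 6 clusters it passed only in cluster 0 (0.84), with 0.02 in cluster 8 and -0.04 in cluster 1. Ccr7 passed in 1 of 4 stages, Cd27-only cells (2.58 [1.05, 4.55], from 4 control and 27 DR UMIs), and in 1 of 6 clusters, cluster 8 (3.92 [1.22, 9.32], from 1 and 15 UMIs), which held 15 of the 40 DR UMIs. Ccr7 in NK-like cells was 0.328% of its level in B-like cells in control and 1.38% in DR. The B cell genes Cd79a, Cd79b, Ms4a1 and Ebf1 stood in NK-like cells at 0.07% to 0.217% of their B-like level in control and 0.102% to 0.297% in DR. The control interval of Ccr7 [0.138, 0.672] overlapped this range and the DR interval [0.974, 1.91] lay above it. Against T-like cells of DR, Ccr7 stood at 0.5%, above Cd3e (0.105%), Cd8b1 (0.102%), Cd5 (0.12%) and Cd6 (0.128%) and below Trac (1.19%). Gpr183 was at 1.27% and 2.89% of its B-like level and S1pr1 at 9.87% and 30.1%, above these 4 B cell genes in both libraries. Summed over marker lists, NK-like cells held 10.4 CPM of 6 B cell genes in control and 16.1 CPM in DR, 275.5 and 237.5 CPM of 8 T cell genes (Cd8b1 and Cd6 at 0 in control), 153 and 161 CPM of 6 myeloid genes (S100a9 at 0 in control), and 54.8 and 101 CPM of 8 ILC1 genes. Leaving out the 180 control and 387 DR NK-like cells with a UMI of any of 13 B, T or myeloid cell genes gave 1.16 for S1pr1, -0.58 for S1pr5, 2.67 for Ccr7 and 1.04 for Gpr183. The median mitochondrial share of NK-like cells was 1.60% in control and 2.43% in DR, and among cells of at most 5% the S1pr1 ratio was again 1.16 and the S1pr5 ratio -0.58.

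**Figure D3:**
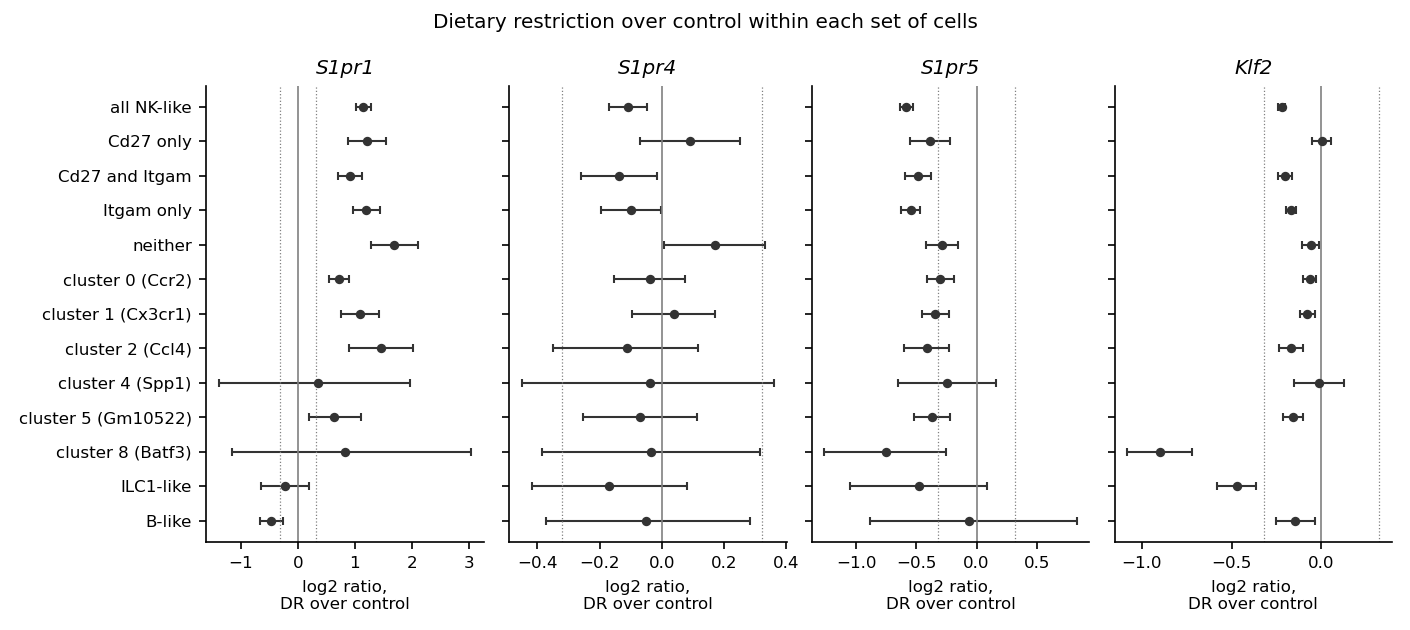
Log2 ratio of DR over control (horizontal axis, 95% counting intervals, dotted lines at the size rule) for 4 genes in all NK-like cells, the 4 stages, 6 clusters, ILC1-like and B-like cells. S1pr1 lies right of 0 in every NK-like set and at -0.46 in B-like cells, S1pr5 lies left of 0 throughout, and Klf2 passes the size rule in cluster 8 and in ILC1-like cells.

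Detection per cell showed the same directions once depth was equalised. Each cell of at least 3000 UMIs was thinned at random to 3000, which left out 249 control and 198 DR NK-like cells. S1pr1 was then detected in 5.43% of control cells [4.77, 6.14] and 12.5% of DR cells [11.5, 13.5], against 11.6% and 20.2% before thinning. S1pr5 was detected in 49.5% [48.0, 50.97] and 37.6% [36.2, 39.1], against 73.2% and 54.7% unthinned. S1pr4 was in 35.0% and 34.1% of thinned cells and Klf2 in 94.6% and 92.1%. In B-like cells, which should lack the gene, S1pr5 was in 2.52% of 119 thinned control cells and 3.62% of 442 thinned DR cells (unthinned medians of 8748 and 6944.5 UMIs), and the NK gene Ncr1 in 9.24% and 6.56%.

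S1pr1 and S1pr5 were not found in separate cells. In control, S1pr5 was detected in 46.4% [39.9, 53.0] of 237 thinned NK-like cells with an S1pr1 UMI and in 49.6% [48.1, 51.2] of 4131 without. In DR the shares were 38.5% [34.3, 42.8] of 525 cells and 37.5% [36.0, 39.1] of 3691. The intervals overlapped in both libraries. Cells with an S1pr4 UMI had S1pr5 more often than cells without, at 52.9% [50.4, 55.5] against 47.6% [45.8, 49.5] in control and 42.0% [39.4, 44.6] against 35.4% [33.6, 37.2] in DR. These shares pool stages over which both genes rise. Within Itgam-only cells, the largest control stage, with stages set on the thinned counts, the shares were 57.1% with S1pr4 and 57.7% without in control, and 47.3% and 43.0% in DR with overlapping intervals. Within Cd27-only cells they were 40.4% and 31.7% in control, with overlapping intervals, and 33.8% [27.5, 40.6] and 21.5% [18.1, 25.2] in DR. Within cells with neither stage gene they were 50.96% and 43.8% in control, with intervals that did not overlap. In DR these cells had 40.3% and 35.6%, with overlapping intervals. Within cells with both stage genes they were 52.1% and 43.9% in control and 42.97% and 39.3% in DR, with overlapping intervals in each library.

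S1pr5 and S1pr4 were detected more often in cells with more Klf2 UMIs, and S1pr1 differed between Klf2 bins beyond counting error only in DR. Among thinned control cells, the share with S1pr5 was 35.1% at 0 to 2 Klf2 UMIs, 49.3% at 3 to 5, 55.6% at 6 to 8 and 62.0% at 9 or more. In DR it was 27.3%, 38.3%, 44.7% and 48.6%, below control in each bin. The share with S1pr4 ran from 27.5% to 40.5% in control and from 27.6% to 42.1% in DR over the same bins, with the libraries' intervals overlapping in each. The share with S1pr1 was 4.93% in the lowest bin and 4.31% in the highest in control. In DR it was 9.81% [8.17, 11.6] at 0 to 2 Klf2 UMIs, 13.9% [12.3, 15.6] at 3 to 5, 13.1% at 6 to 8 and 12.8% at 9 or more. Intervals of the lowest and the highest bin overlapped in each library, but those of the DR bins 0 to 2 and 3 to 5 did not. Within Itgam-only control cells the share with S1pr5 still ran from 46.9% [40.8, 53.0] at 0 to 2 Klf2 UMIs to 65.6% [60.2, 70.8] at 9 or more. In DR Itgam-only cells it ran from 36.5% [30.7, 42.7] to 48.4% [40.5, 56.4], with overlapping intervals. The S1pr5 intervals of the lowest and highest bins also overlapped in cells with both stage genes, in each library. They did not overlap in Cd27-only cells or cells with neither gene. Those of S1pr4 overlapped except in control Cd27-only cells and, in each library, in cells with neither gene. The highest bin was 6 to 8 in Cd27-only cells and cells with both genes. The points of 1 library share its depth and its free RNA, and cells are not replicates, so these shares are given without a test.

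**Figure D4:**
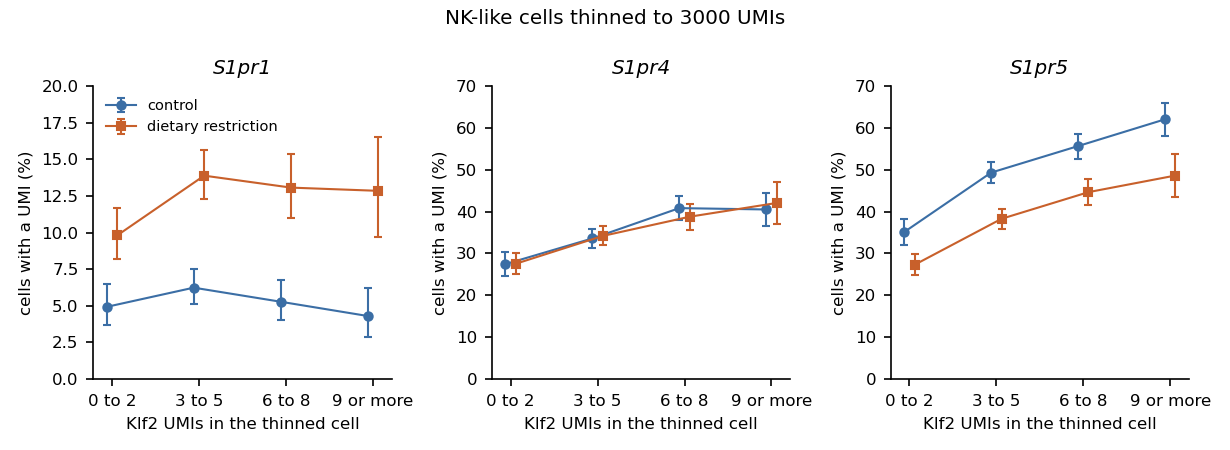
Share of NK-like cells thinned to 3000 UMIs that had a UMI of S1pr1, S1pr4 or S1pr5 (percent, vertical axis from 0 with its own scale for S1pr1) by the number of Klf2 UMIs in the cell, with 95% binomial intervals. The S1pr5 share runs from 35.1% to 62.0% in control and from 27.3% to 48.6% in DR. The S1pr1 share stays between 4.31% and 6.24% in control and between 9.81% and 13.9% in DR.

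ILC1-like cells, which stay in tissue, had a different set of receptor genes from NK-like cells. S1pr5 was at 23.2 CPM [17.7, 29.98] in the control and 16.6 CPM [12.3, 21.9] in DR, log2 ratios of -3.33 and -3.22 against the NK-like cells of the same library. Klf2 was at 591.7 and 426.6 CPM. Gpr183 was at 120 CPM [107, 134] and 73.9 CPM [64.5, 84.3], log2 ratios of 6.36 and 4.50 against NK-like cells. S1pr1 was above the NK-like level in control (37.4 CPM, 0.78 [0.46, 1.09]) and below it in DR (31.9 CPM, -0.59 [-0.91, -0.29]). From control to DR, Gpr183 (-0.70 [-0.95, -0.44]) and Klf2 (-0.47 [-0.58, -0.36]) were lower in ILC1-like cells, and S1pr1 (-0.23 [-0.65, 0.20]) did not differ beyond counting error. Cd3e stood at 1.18 CPM in the control and 22.6 CPM in DR ILC1-like cells, and its part in these ratios was not tested.

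B-like and T-like cells carried the recirculation genes of naive lymphocytes. S1pr1 was at 220 CPM [197, 246] in the control and 160 CPM [148, 173] in DR B-like cells and at 238 CPM [220, 258] in DR T-like cells. Ccr7 was at 68.6 CPM [55.7, 83.6] and 107 CPM [97.5, 118] in B-like cells and at 297 CPM [276, 319] in T-like cells. Gpr183 differed less between these classes, at 115 and 113 CPM in B-like and 138 CPM in T-like cells. Klf2 was at 671 and 607 CPM in B-like and 759 CPM in T-like cells, below the NK-like level of the same library. In B-like cells S1pr1 was lower in DR (-0.46 [-0.66, -0.26]) and Ccr7 higher (0.64 [0.33, 0.98]). The B-like cells of the libraries also differed in the light chain gene Igkc, at 5047 CPM in the control and 17596 CPM in DR, and in Ighm, at 3689 and 6670 CPM, and the part of this difference in the S1pr1 and Ccr7 ratios was not tested.

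S1pr5 was low in B-like and T-like cells, as were other NK cell genes. It stood at 11.9 CPM in the control and 11.4 CPM in DR B-like cells, 5.11% [2.97, 8.18] and 7.34% [5.39, 9.79] of the NK-like level, and at 5.08 CPM in T-like cells, 3.27% [1.74, 5.60]. Ncr1 stood at 4.86% and 4.83% of its NK-like level in B-like cells and at 3.09% in T-like cells of DR. Over Ncr1, Klrb1c, Klre1, Gzma, Prf1 and Klra8, the B-like share ran from 3.69% to 6.06% in control and from 3.22% to 4.83% in DR. In control the interval of S1pr5 overlapped those of all 6 genes. In DR it overlapped that of Ncr1 [4.201, 5.52] alone and lay above those of the other 5, whose upper bounds ran from 3.38% to 5.17%. In T-like cells the 6 genes ran from 1.67% (Klra8) to 8.50% (Prf1), and the interval of S1pr5 overlapped all but that of Prf1. S1pr4 had 74.9 and 72.3 CPM in B-like and 82.9 CPM in T-like cells, 50.9% and 53.0% of the NK-like level in B-like and 60.8% in T-like cells, far above the share of Ncr1.

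**Figure D5:**
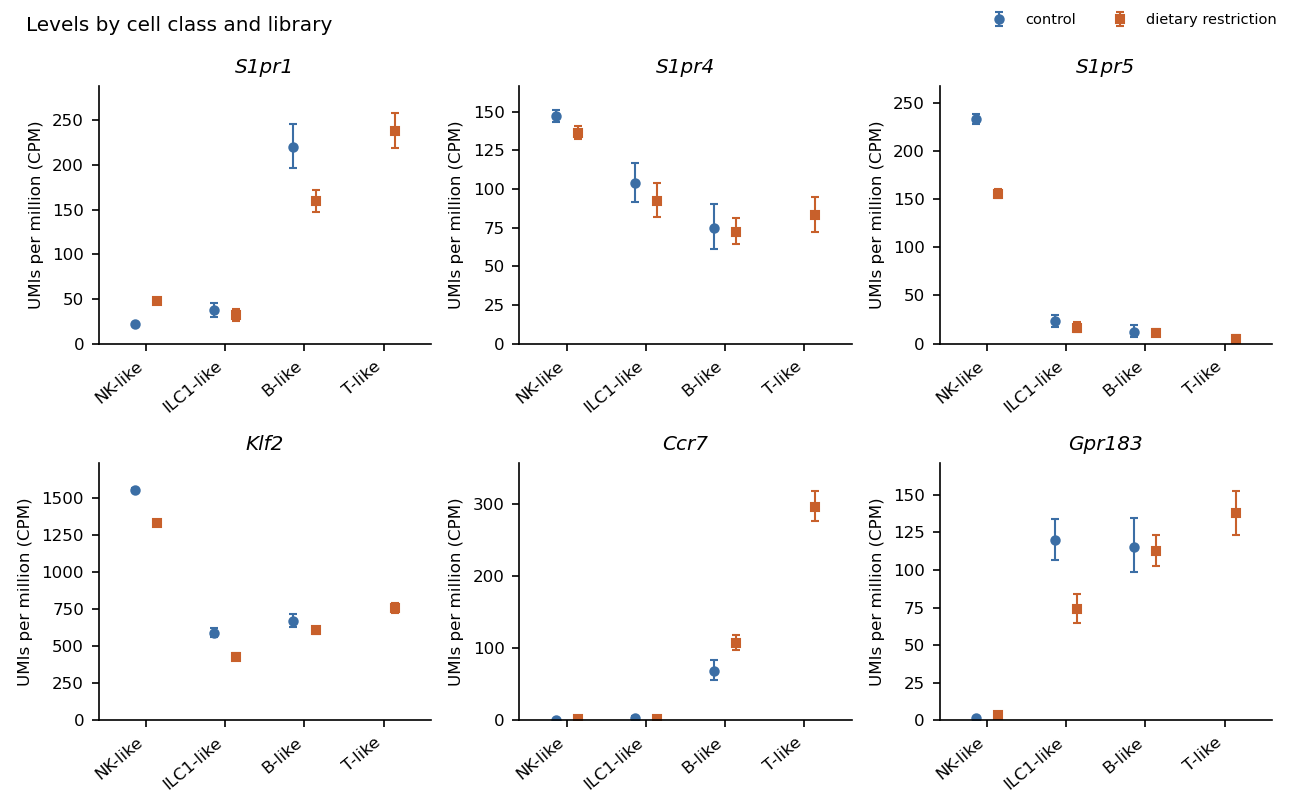
Level of each gene (CPM, vertical axis from 0) in NK-like, ILC1-like, B-like and T-like cells of the control (circles) and DR (squares) libraries with 95% Poisson intervals; T-like cells are shown for DR alone. S1pr5 and Klf2 are highest in NK-like cells, S1pr1 and Ccr7 in B-like and T-like cells, and Gpr183 is low in NK-like cells but not in the other 3 classes.

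The full order of S1pr1 over the 13 sets of at least 50 cells (4 stages, ILC1-like and B-like cells in each library and DR T-like cells) ran from DR T-like and control B-like cells, whose intervals overlap, to DR B-like cells, then the 4 DR stages, ILC1-like cells and the control stages. Only control cells with both genes (32.8 CPM) lay among the ILC1-like levels (37.4 and 31.9 CPM), and the other 3 control stages, at 15.2 to 18.0 CPM, had overlapping intervals. For S1pr5 the NK-like stages held the 8 highest places, from 302 to 83.9 CPM, followed by ILC1-like cells and then B-like and T-like cells. For S1pr4 the highest place was again control Itgam-only cells (174 CPM), and Cd27-only cells (97.2 and 103 CPM) were level with ILC1-like cells (104 and 92.2 CPM) within their intervals.

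Across these 13 sets, the genes most like S1pr5 by Pearson's r of log2(CPM + 1), among 7252 genes, were Syne3 (0.994), Gm28875 (0.993) and Gzma (0.991), the last encoding a granule protease. The most like S1pr4 were Ing1 (0.972), Chfr (0.969) and Klrg1 (0.968), an inhibitory receptor of mature NK cells. For Klf2 they were Arhgef18 (0.961), Lair1 (0.956) and Flna (0.953), and for S1pr1 A930005H10Rik (0.957), Bcl9 (0.927) and Hlcs (0.922). For Ccr7 they were Fam169b (0.978), Rps19 (0.973) and Rps26 (0.971), and for Gpr183 Retreg1 (0.984), Rnf144a (0.969) and Tspan31 (0.967). Between members, r was 0.90 for S1pr5 with S1pr4, 0.88 for S1pr5 with Klf2, 0.92 for S1pr1 with Ccr7, -0.44 for S1pr1 with Klf2 and -0.98 for S1pr5 with Gpr183. The sets come from only 2 libraries and are dominated by the contrast of NK-like with other cells, and r is a description.

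The genes around the receptors were counted from 7 lists. The S1P receptors S1pr2 (12.8 CPM in the control and 11.0 CPM in DR NK-like cells) and S1pr3 (4 UMIs in each library) stayed under 20 CPM, and S1pr2 stood at 8.96 CPM in Cd27-only and 15.3 CPM in Itgam-only control cells, against 10.8 and 11.7 CPM in DR. Of 11 genes of S1P metabolism and transport, 2 reached 20 CPM and neither passed the size rule: Sgpl1, the lyase that ends S1P signalling, at 33.3 and 26.7 CPM, and the phosphatase gene Sgpp1 at 28.3 and 29.5 CPM. The listed genes of oxysterol enzymes were under the minimum, with 0 to 32 UMIs per gene and library. Of 16 genes of receptor signalling and internalization, 14 were measured and 1 was higher and 1 lower, against 2.97% higher and 7.89% lower among all genes. Cd69 was higher in DR (43.6 and 57.5 CPM, 0.40 [0.30, 0.50]) and Dock2, which activates Rac, lower (-0.33 [-0.37, -0.29]), Gna13 (0.30) and Rgs1 (-0.23) stayed under the size rule, and the median was -0.11 against -0.063 for all genes. Cd69 and S1pr1 were thus both higher in DR over all NK-like cells, but Cd69 passed the size rule only in Itgam-only cells among the stages, a difference between stages that was not tested.

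Of 12 genes of the KLF and FOXO axis, 8 reached 20 CPM and 3 were higher in DR, against 2.97% of all genes higher and 7.89% lower, with a median of 0.13 against -0.063 for all genes: Il7r (28.6 and 55.1 CPM, 0.95 [0.83, 1.06]), Klf10 (0.46) and Klf6 (0.34). By stage, these 3 genes were called higher in Cd27-only cells and in cells with both genes. Of the 3, only Klf10 was called in Itgam-only cells, where Il7r was under 20 CPM, and only Klf6 in cells with neither gene. Map2k5 (18.7 and 19.9 CPM) and Mapk7 (8.49 and 7.16 CPM), the kinase genes upstream of Klf2 named above, stayed under the minimum in both libraries. Of 6 maturation factors, with a median of -0.05, Zeb2 was lower in DR (709 and 468 CPM, -0.60 [-0.63, -0.57]), and was also called lower within each stage. A link between Zeb2 and S1pr5 was not tested. Zeb1 (0.28), Tcf7 (0.28) and Prdm1 (-0.14) stayed under the size rule over all NK-like cells. By stage, Tcf7 was called higher in cells with both genes and in Itgam-only cells, Zeb1 in Itgam-only cells and Prdm1 in Cd27-only cells. Tbx21, which encodes T-bet, was at 153 and 144 CPM, and Eomes, named in the title of the series, at 336 and 330 CPM. Of 15 other homing receptors and integrins, 11 were measured, with a median of -0.07. Cxcr3 (0.93) and Cxcr4 (0.93) were higher in DR, and Cx3cr1 (128 and 22.0 CPM, -2.55) and Itga4 (-0.65) lower.

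Over the stages, the counts of each list stand against the 20.9% of all genes higher and 10.4% lower in control, and 17.6% and 6.89% in DR. Of the 6 maturation factors, 3 were higher and 1 lower in Itgam-only cells in each library. Zeb2 was higher in Itgam-only than in Cd27-only cells by 1.71 on the log2 scale in control and 1.69 in DR, Prdm1 by 1.71 and 1.32 and Tbx21 by 0.67 and 0.50, and Tcf7 was lower (-3.02 and -2.11). Of the 11 measured homing genes, 6 were higher and 3 lower in each library, with a median of 0.44 in control and 0.45 in DR. Cx3cr1 was at 3.61 and 3.60, and Cxcr3 at -3.20 and -1.57. Of the KLF and FOXO list, 2 genes were higher and 1 lower of 8 in control and 3 higher and 1 lower of 9 in DR, with Il7r the lower one (-3.40 and -2.82). Sgpl1 was higher in both (0.42 and 0.58). Of the 14 signalling genes, 3 were higher and 1 lower in control and 2 higher and 1 lower in DR, shares near those of all genes. Cd69 was the lower one in both (-1.24 and -0.84).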

How the data were processed

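Per the labels' protocols, NK cells from spleen were sorted by flow cytometry and made into 10x Genomics 3' libraries. The deposited values are whole-number UMI counts per gene and barcode, not normalized, written by Cell Ranger 5.0.1 per the file headers; the submitters' processing notes name Cell Ranger 2.1.1 and mm10. All barcodes had at least 501 UMIs, so free RNA could not be estimated from empty droplets. From the deposited counts, barcodes under 500 genes or over 10% mitochondrial UMIs were dropped (215 in control, 167 in DR). Scrublet's automatic threshold called 0 doublets in each library, so the top scores at 0.8% per 1000 cells, ties included, were removed (243 and 364 cells). Both libraries were clustered together in scanpy 1.11.5 without integration (2000 variable genes without the 6 members, 30 components, 15 neighbours, Leiden resolution 0.6). Clusters were named where at least 3 markers and 50% of a list reached 25% of the highest cluster's level. UMIs were summed per class and library as CPM, with exact 95% Poisson, conditional binomial and Clopper-Pearson intervals. The ratio rule was tested on simulated counts. With 1 library per group no p-value is given.

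Named genes were the 6 members, the 4 most changed genes of at least 20 CPM in each of 7 lists, and the 3 genes most alike per member. Eomes, Tbx21, S1pr2, S1pr3, Map2k5 and Mapk7 are named in addition. Some genes of the lists are not reported here. The members and lists were chosen with earlier results of these data known. Adrbk1 was matched to Grk2 by RefSeq synonym. Alternatives were other scaling, totals, filters, staging, weighting and cell selection; leaving out cluster 8 or cells with other lineages' UMIs, adding the cycling cluster and weighting clusters equally were chosen after seeing the data.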

Additional observations from a re-analysis of the deposited data

Results flagged for a closer look

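S1pr1 and Gpr183 went in opposite directions in different cell classes, each past the size rule. The log2 ratio of DR over control for S1pr1 was 1.15 in NK-like cells and -0.46 in B-like cells, and for Gpr183 it was 1.16 in NK-like cells and -0.70 in ILC1-like cells. With 1 library per group the difference between classes was not tested. The NK-like Gpr183 ratio rests on 52 and 88 UMIs and did not hold throughout these cells: it was -0.13 [-0.88, 0.61] in Cd27-only cells, and it passed the size rule in 2 of 4 stages and 1 of 6 clusters.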

How the results depend on the processing

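No paired analysis was possible because each group is 1 library and the labels carry no replicate numbers, so no replicate was left out either. Of 117 alternatives to the main values, 77 stayed within the counting interval, 40 moved and none reversed a called value. The cause of each move was not tested beyond the alternative's own construction.

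For DR over control in NK-like cells, weighting the stages equally gave log2 ratios of 0.0057 for S1pr4, -0.43 for S1pr5 and -0.11 for Klf2. Weighting clusters of at least 50 cells equally gave 0.85 for S1pr1, -0.044 for S1pr4 and -0.40 for S1pr5. Median-of-ratios scaling gave -0.046 for S1pr4, -0.52 for S1pr5 and -0.16 for Klf2, and 302 genes higher and 246 lower. Leaving ribosomal and mitochondrial genes out of the total gave -0.52 for S1pr5 and -0.16 for Klf2. Picking NK cells cell by cell gave -0.52 and -0.18, and leaving out cluster 8 gave -0.19 for Klf2. A minimum of 5 CPM gave 510 genes higher and 747 lower, with more genes tested.

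For Itgam-only over Cd27-only cells, leaving out cluster 8 gave, in control, -0.46 for S1pr1, 0.59 for S1pr4, 1.06 for S1pr5 and 0.66 for Klf2, and in DR -0.42, 0.44, 0.95 and 0.50. Staging on thinned cells gave, in control, -0.65 for S1pr1, 0.56 for S1pr4, 0.95 for S1pr5 and 0.61 for Klf2, and in DR 0.50 for S1pr4, 0.97 for S1pr5, 0.50 for Klf2 and -2.03 for Ccr7. Cell-by-cell picking gave, in control, 1.29 for S1pr5, 0.89 for Klf2 and -0.28 for Gpr183, and in DR 1.09 for S1pr5 and 0.70 for Klf2. Asking for 2 UMIs gave 1.004 for Klf2 in control. Gpr183 no longer passed the size rule in control on thinned cells (-2.20), or in DR with 2 UMIs asked for (-0.90) or cell-by-cell picking (-0.92).

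Ccr7 gave no value with stages or clusters weighted equally, or over the control stages, because some of these cells had 0 UMIs. Few UMIs limit the ratios of Ccr7 (8 and 40) and Gpr183 (52 and 88) in NK-like cells, and nothing here measures the variation between mice.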
